A study of Mus musculus with 4 samples.

Results

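MHC class II presentation genes encode the machinery with which macrophages and other antigen-presenting cells show peptides from engulfed material to CD4+ T cells. The genes described here are the 10 of the class II pathway H2-Aa, H2-Ab1, H2-Eb1, Cd74, Ctss, Ifi30, H2-DMa, H2-DMb1, H2-DMb2 and Ciita. They were chosen by symbol, after matching the identifiers of the authors' table to gene names, and all 10 were found among its 53139 loci. All 10 were also among the 12648 loci that the authors' Cuffdiff test had covered.

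The study compared RNA of macrophages taken from MCA fibrosarcoma tumours of mice (cell line label 9609 parent, genotype WT) after exposure in culture to exosomes, small vesicles that cells release. A group of 2 samples received MEK1-hi exosomes and a group of 2 samples received MEK1-low exosomes, which the treatment label also marks GFP. MEK1 is the kinase upstream of ERK. The labels give neither the strain and age of the mice, nor the maker of the exosomes, nor whether samples within a group were separate cultures, and no untreated macrophages were among the 4 samples. MEK1 content and the GFP mark therefore cannot be told apart, and every difference below is between the 2 exosome treatments. The table holds a single value per group in FPKM (fragments per kilobase of transcript, scaled to library size), so no spread between samples accompanies any level, and the depth of each sample is unknown. The p-values and q-values (p adjusted over all tested loci) are the authors' own and rest on these 4 samples alone, whose spread could be technical. How the authors' program modelled that spread is not stated. A gene is said to have passed where its q was under 0.05.

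In the class II pathway, an alpha and a beta chain pair in the endoplasmic reticulum around the invariant chain Cd74, which blocks the peptide groove and directs the complex to endosomes. There, proteases such as cathepsin S (Ctss) trim the invariant chain to a short remnant, the reductase GILT (Ifi30) opens disulfide bonds of antigens, and the H2-DM heterodimer exchanges the remnant for antigenic peptide. Transcription of the chain genes, of Cd74 and of H2-DM depends on the coactivator CIITA, which docks on RFX and NF-Y factors bound to the X and Y boxes of their promoters and is itself induced by interferon gamma.

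Those promoter boxes are shown first, because 2 chain genes and both H2-DM beta chain genes held their letters while the transcripts of these 4 genes lay at very different levels. RefSeq promoters (GRCm38.p6, 250 bases before to 50 bases after a gene's start) were matched for 7 of the 10 genes, with 8 start sites in all, and none is shown for H2-Ab1, Cd74 and Ciita. The promoters of 4 genes held the letters CTNNNAAC, as in the first part of an X box, followed on the same strand after 10 to 40 bases by TGATTGG, the Y box letters to which NF-Y binds. Those genes were H2-Aa, H2-Eb1, H2-DMb1 and H2-DMb2. Capitals mark the 2 motifs in the stretches below, each written 5′ to 3′ on the strand of its gene. The stretch of H2-DMb1, at chr17:34153079-34153149, is not printed, since it lies within the first exon of that gene in GENCODE M21, which places the start farther upstream than RefSeq does. The span of H2-DMb2 in GENCODE M21 also begins upstream of its printed stretch, which there lies before the start of 2 of its transcripts and within the span of another.
H2-Aa, minus strand, chr17:34287852-34287922: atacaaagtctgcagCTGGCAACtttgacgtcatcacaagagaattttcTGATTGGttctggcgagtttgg
H2-Eb1, plus strand, chr17:34305758-34305827: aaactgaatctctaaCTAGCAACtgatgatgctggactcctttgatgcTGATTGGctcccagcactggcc
H2-DMb2, plus strand, chr17:34145108-34145178: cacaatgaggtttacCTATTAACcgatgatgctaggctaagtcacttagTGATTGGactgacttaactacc

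The motifs lay 25 bases apart in H2-Eb1 and 26 bases apart in H2-Aa, H2-DMb1 and H2-DMb2. The Y box began between 50 and 92 bases before the RefSeq start. Over all 32851 promoters of the same length, searched on both strands, 7.82% held TGATTGG, 41.1% held CTNNNAAC, and 72 promoters (0.219%) held both in this order and spacing. The letters and spacing were set after these 4 promoters had been read, so the match is a description. Neither of the 2 start sites of H2-DMa nor the promoters of Ctss and Ifi30 held TGATTGG. In the Ctss promoter stood instead the letters GAAA, any 2 bases and again GAAA, part of the element that interferon regulatory factors bind, beginning 21 bases before the start and present on either strand in 3.44% of all promoters.
Ctss, plus strand, chr3:95526750-95526789, with these letters in capitals: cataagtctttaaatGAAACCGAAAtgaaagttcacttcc

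None of the 10 genes passed the authors' Cuffdiff test, where 2.44% of all tested loci did (1.69% lower and 0.751% higher with MEK1-hi exosomes). Values were lower with MEK1-hi exosomes for 8 of the 10 genes, as they were for 49.8% of all tested loci. The difference was of like size in the 6 abundant genes, the chain genes, Cd74, Ctss and Ifi30, at 17.8% to 22.1% lower. With a looser q under 0.1, 0 of the 10 genes passed, beside 3.11% of all tested loci. By the nominal p of the authors' deposited table, 4 of the 10 genes were lower and 0 higher at p under 0.05, against 5.12% and 3.53% of all tested loci. On the log2(FPKM + 1) scale, the 9 genes at 1 FPKM or more in either group had a median log2 fold change of -0.30, beside 0.00 over the 11804 tested loci at that level. In bulk RNA, a lower level in every cell and a smaller number of class II-rich cells cannot be told apart.

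**Figure D1:**
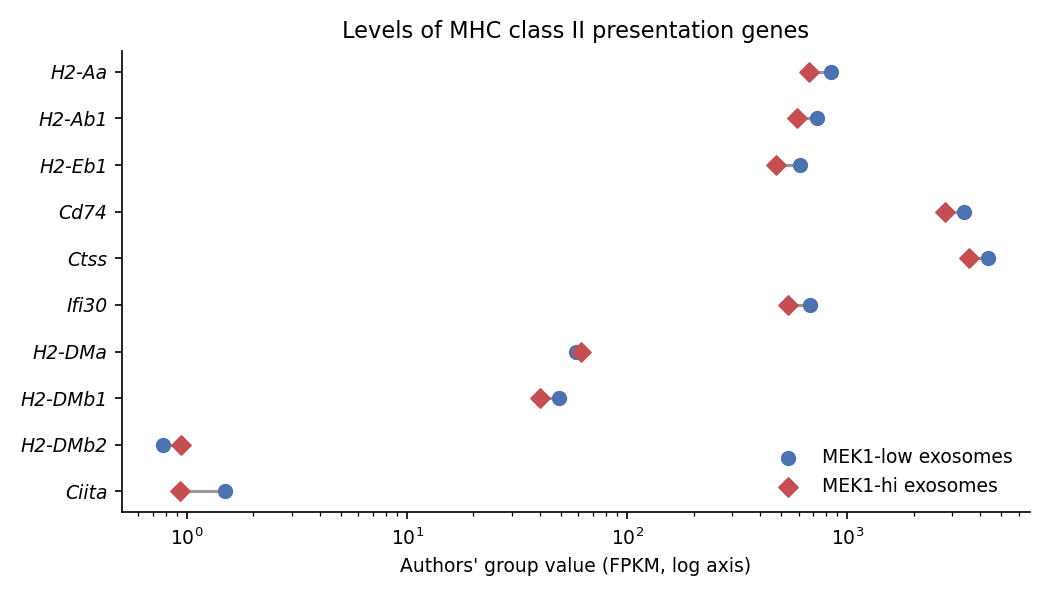
Group values of the 10 class II genes in FPKM on a log axis, 1 point per treatment (circles, MEK1-low exosomes; diamonds, MEK1-hi exosomes), with no error because each group has a single value. Levels run from under 1 FPKM for H2-DMb2 to 4375 FPKM for Ctss, and the 6 most abundant genes each have the lower value with MEK1-hi exosomes.

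The chains that hold the peptide were measured through H2-Aa and H2-Ab1, the alpha and beta chains of H2-A, and H2-Eb1, the beta chain of H2-E. H2-Aa (ENSMUSG00000036594, chromosome 17, 34282744 to 34287823, mm10) stood at 844 FPKM in the MEK1-low group and 667 FPKM in the MEK1-hi group, 20.9% lower (p = 0.0235, q = 0.376 from the authors' deposited table). H2-Ab1 (ENSMUSG00000073421, chromosome 17, 34257689 to 34269419) stood at 725 and 588 FPKM, 19.0% lower (p = 0.0424, q = 0.525 from the authors' deposited table). H2-Eb1 (ENSMUSG00000060586, chromosome 17, 34305867 to 34316674) stood at 609 and 474 FPKM, 22.1% lower (p = 0.0228, q = 0.366 from the authors' deposited table). All 3 chain genes thus had a nominal p under 0.05 and a q far above the threshold. They ranked between 96th and 147th of the tested loci by mean level.

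The chain transcripts kept nearly the same proportions in both groups. Per length, H2-Aa over H2-Ab1 was 1.16 in the MEK1-low and 1.14 in the MEK1-hi group, and H2-Eb1 over H2-Ab1 was 0.839 and 0.807. H2-Ea-ps, the alpha chain partner of H2-Eb1, which the reference annotates as a pseudogene, was listed at 0 FPKM in both groups, and H2-Eb2, a further beta chain gene, at 0 and 0.0105 FPKM. Neither was tested.

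Cd74 (ENSMUSG00000024610, chromosome 18, 60803848 to 60812652), the invariant chain, was the 18th most abundant of the tested loci. It stood at 3373 FPKM in the MEK1-low group and 2772 FPKM in the MEK1-hi group, 17.8% lower (p = 0.109, q = 0.821 from the authors' deposited table). Its row in the table also holds the microRNA gene Mir5107, which lies within it. Per length, the level of Cd74 over that of H2-Aa was 3.996 in the MEK1-low and 4.15 in the MEK1-hi group.

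Ctss and Ifi30, which act on antigen and invariant chain in endosomes, were abundant too. Ctss (ENSMUSG00000038642, chromosome 3, 95526786 to 95556403) stood at 4375 and 3552 FPKM, 18.8% lower (p = 0.107, q = 0.815 from the authors' deposited table), and ranked 13th of the tested loci. Ifi30 (ENSMUSG00000031838, chromosome 8, 70762774 to 70766663) stood at 679 and 535 FPKM, 21.1% lower (p = 0.0283, q = 0.423 from the authors' deposited table). Ifi30 was the only gene outside the 3 chain genes with a nominal p under 0.05 among the 10.

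These 6 abundant genes made up 99.0% (MEK1-low) and 98.8% (MEK1-hi) of the summed level of the 10. The sum of all 10 was 10714 and 8692 FPKM, or 1.66% and 1.39% of the FPKM total of each group. Loci of high level passed the test more often than all tested loci together. Among the 173 tested loci at 500 FPKM or more, a level chosen after the data were seen, 57.8% had lower values with MEK1-hi exosomes, 9.83% passed the test, and 21.4% were lower at a nominal p under 0.05 from the authors' deposited table. Log2 fold changes had a median of -0.07 over these 173 loci and of -0.32 over the 6 class II genes among them. Of the 173 loci, between 30 (for H2-Eb1) and 43 (for Cd74) showed a more negative log2 fold change than each of the 6.

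**Figure D2:**
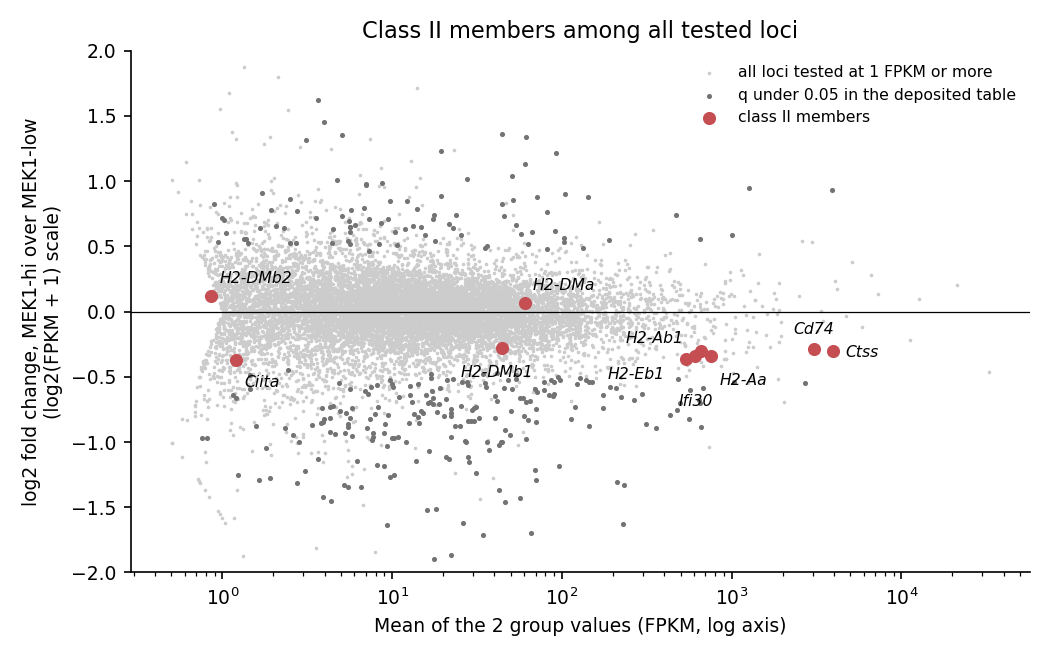
Log2 fold change (MEK1-hi over MEK1-low, log2(FPKM + 1) scale) against the mean of the 2 group values (FPKM, log axis) for tested loci at 1 FPKM or more (light grey), those with q under 0.05 (dark grey) and the 10 class II genes (red), H2-DMb2 being under 1 FPKM. The 6 abundant class II genes lie between -0.36 and -0.28 and 23 loci beyond 2 in either direction are not drawn.

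H2-DM, the peptide editor, showed no common direction. H2-DMa (ENSMUSG00000037649, chromosome 17, 34119541 to 34139101), its alpha chain, stood at 58.8 FPKM in the MEK1-low group and 61.7 FPKM in the MEK1-hi group (q = 0.999 from the authors' deposited table), the only value over 1 FPKM among the 10 that was higher with MEK1-hi exosomes. H2-DMb1 (ENSMUSG00000079547, chromosome 17, 34153072 to 34160230), a beta chain gene, stood at 48.8 and 40.1 FPKM, 17.7% lower (p = 0.0673, q = 0.667 from the authors' deposited table). The size of this difference was like that of the chain genes, and the level of H2-Ab1 over that of H2-DMb1 was 14.9 and 14.6 per length. H2-DMa over H2-DMb1 was 1.20 in the MEK1-low and 1.54 in the MEK1-hi group, a shift whose error cannot be given. The annotated span of H2-DMa overlaps Brd2, CR974462.3, CR974462.4 and Gm20493, that of H2-Eb1 overlaps Gm20513, that of Ifi30 6330537M06Rik, that of Ctss Hmgb1-ps5 and that of Ciita Dexi, and the labels do not say whether reads were counted by strand.

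H2-DMb2 (ENSMUSG00000037548, chromosome 17, 34143307 to 34151555), the other beta chain gene of H2-DM, had a far lower listed level than its neighbour. It stood at 0.781 and 0.936 FPKM (q = 0.999 from the authors' deposited table), so that the level of H2-DMb1 over that of H2-DMb2 was 62.5 and 42.9 per length. Both genes carry the motif pair described above, and their 300-base promoters were identical at 84.2% of 247 aligned bases. Their transcripts were identical at 94.6% of 1219 aligned bases. Of the 100-base windows (the read length) in the longest coding transcript, 13.7% for H2-DMb1 and 12.9% for H2-DMb2 occurred exactly in the other gene. How the authors' program divided such reads is not stated, and even a small share of H2-DMb1 reads placed on H2-DMb2 could make up the whole H2-DMb2 value, so that level, its difference between the groups and both ratios are uncertain. For the other 8 genes, 0 such windows occurred in the transcript of any other annotated gene.

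Ciita (ENSMUSG00000022504, chromosome 16, 10480059 to 10528418), the coactivator, was expressed at a low level. It stood at 1.49 FPKM in the MEK1-low group and 0.927 FPKM in the MEK1-hi group, 37.7% lower (p = 0.0531, q = 0.592 from the authors' deposited table). Its percentage difference was the largest of the 10, at a level 11278th of the 12648 tested loci. The log2 fold change was -0.37 with 1 FPKM added to each value and -0.68 with nothing added.

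H2-DMa, H2-DMb2, H2-DMb1, H2-Ab1, H2-Aa and H2-Eb1 lie in this order within 197 kb of chromosome 17, together with genes of other functions. The other tested loci there serve as a positional comparison, including Brd2, which only partly overlaps the edge of this span. These were Psmb8 and Psmb9, immunoproteasome subunits, Tap1 and Tap2, the peptide transporter for class I molecules, Brd2, a chromatin reader, and CR974462.3, annotated as antisense. None of the 6 passed the test, and 0 had a nominal p under 0.05 in the authors' deposited table. Psmb8 stood at 309 and 289 FPKM, Brd2 at 91.6 and 86.9 FPKM, and Psmb9 at 47.7 and 42.5 FPKM. All 6 had lower values with MEK1-hi exosomes, as had 49.8% of all tested loci. The 5 of them at 1 FPKM or more differed by log2 fold changes of -0.16 to -0.05, against -0.36 to -0.30 for the 3 chain genes. The H2-DM genes of the same region lay on both sides of these neighbours, H2-DMb1 at -0.28, H2-DMa at 0.07 and H2-DMb2 at 0.12. Differences between the class II genes and their neighbours could not be tested, since no value per sample was used here.

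**Figure D3:**
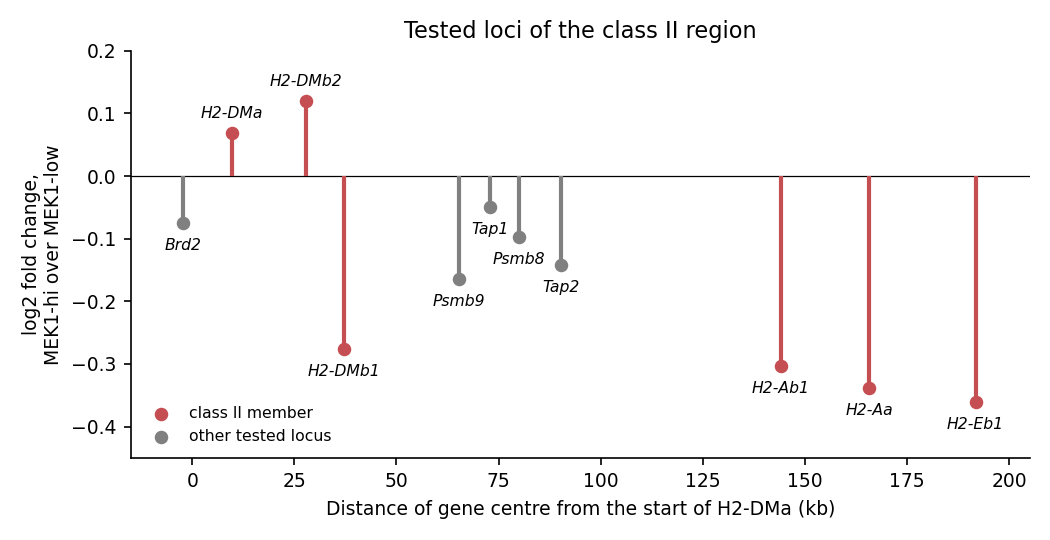
Log2 fold change (MEK1-hi over MEK1-low, log2(FPKM + 1) scale) of tested loci in the class II region against the distance of each gene's centre from the start of H2-DMa in kb, with class II genes in red and other loci in grey, and CR974462.3, under 1 FPKM, left out. H2-Ab1, H2-Aa and H2-Eb1 at the far end lie between -0.36 and -0.30, Brd2, Psmb9, Tap1, Psmb8 and Tap2 between -0.16 and -0.05, and H2-DMb1, H2-DMa and H2-DMb2 at -0.28, 0.07 and 0.12.

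Other genes of the pathway were taken from 5 lists by function, with 45 tested loci. None passed the authors' Cuffdiff test. By nominal p under 0.05, from the authors' deposited table, a single locus (Ctsl) was higher and 4 were lower (Rfxap, Irf1, Cstb and Cst7), the background shares being those given above. Their median log2 fold change was -0.09.

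Of 10 genes for transcription factors and coactivators of class II promoters, 7 had lower values and the median log2 fold change was -0.04. Rfxap, a subunit of the RFX complex that binds the X box, stood at 20.6 and 13.2 FPKM (p = 0.0185, q = 0.323 from the authors' deposited table). Nfya, the NF-Y subunit that contacts the Y box, stood at 59.0 and 64.8 FPKM, and the coactivator gene Ep300 at 19.8 and 17.6 FPKM (q = 0.999 for both from the authors' deposited table). The RFX subunits went unequally, since Rfx5 stood at 4.02 and 2.81 FPKM and Rfxank at 7.35 and 7.17 FPKM.

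Of 10 loci listed for the interferon gamma pathway that induces Ciita, 9 had lower values and the median log2 fold change was -0.20. The lower ones include Socs1, an inhibitor of this pathway, at 2.81 FPKM in the MEK1-low and 2.23 FPKM in the MEK1-hi group. Irf1, a transcription factor that acts on the interferon-inducible promoter of Ciita, stood at 46.5 and 33.1 FPKM (p = 0.00255, q = 0.0853 from the authors' deposited table), the smallest q among all genes of the 5 lists. Spi1, the PU.1 factor of myeloid cells, stood at 272 and 237 FPKM. The receptor chains differed in sign, with Ifngr1 at 78.0 and 85.1 FPKM and Ifngr2 at 76.6 and 56.8 FPKM (q = 0.999 and q = 0.722 from the authors' deposited table).

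Of 12 endosomal proteases and protease inhibitors, 7 had lower values and the median log2 fold change was -0.12. Of the 7 cathepsin genes in this list, which does not hold Ctss, 4 had higher values with MEK1-hi exosomes (Ctsb, Ctsc, Ctsd and Ctsl) and 3 had lower values (Ctsa, Ctsh and Ctsz). Ctsd, in a row joined with Ifitm10 and Gm49369, stood at 4460.1 and 5791 FPKM, and Ctsb at 3732 and 4382 FPKM (q = 0.821 and q = 0.999 from the authors' deposited table). Ctsl, which cleaves the invariant chain in thymic epithelium and shares its row with Gm49230, stood at 2119 and 3079 FPKM (p = 0.0109, q = 0.235 from the authors' deposited table). Lgmn, the endopeptidase legumain, stood at 1016 and 1266 FPKM (q = 0.604 from the authors' deposited table). Among the lower ones, Ctsz stood at 1463 and 1210.4 FPKM, 17.3% lower (p = 0.0856, q = 0.743 from the authors' deposited table), a difference of like size to that of Ctss. Ctsh stood at 470.1 and 429 FPKM and Ctsa at 800.3 and 743 FPKM. Cstb, the cathepsin inhibitor stefin B, stood at 1626 and 1209 FPKM (p = 0.0044, q = 0.126 from the authors' deposited table), and Cst7, cystatin F, at 2.63 and 1.14 FPKM (p = 0.0103, q = 0.227 from the authors' deposited table).

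Of 10 genes of endosomal transport, 5 had lower and 5 higher values, with log2 fold changes from -0.17 to 0.23. The lysosomal membrane protein gene Lamp1 stood at 799 and 768 FPKM, and Rab7, a GTPase of late endosomes, at 299 and 288 FPKM. Among the inhibitors and further class II genes 3 were tested, of which 1 had a lower value. March1, the ubiquitin ligase that removes class II molecules from the surface, stood at 24.4 and 21.8 FPKM. Its relative March8 stood at 15.6 and 17.8 FPKM, and Cd83, which opposes March1, at 6.02 and 7.63 FPKM (p = 0.0699, q = 0.677 from the authors' deposited table). H2-Oa, the alpha chain of the H2-DM inhibitor H2-O, stood at 0.395 and 0.106 FPKM, and H2-Ob, the beta chain, at 0.125 and 0.160 FPKM. Both were left untested by the authors.

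**Figure D4:**
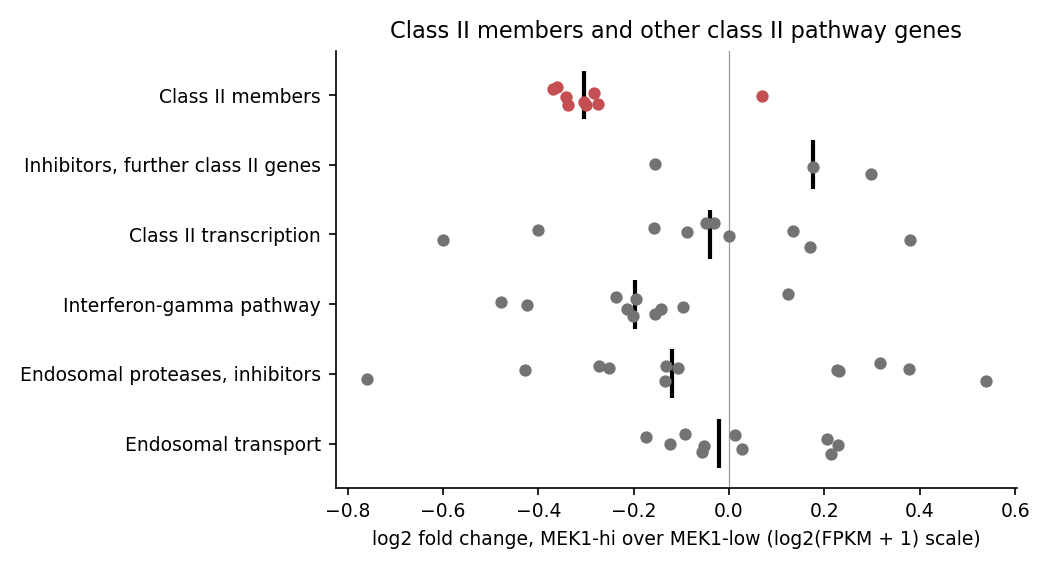
Log2 fold change (MEK1-hi over MEK1-low, log2(FPKM + 1) scale) of each tested gene at 1 FPKM or more, for the class II genes (red) and 5 lists of other pathway genes (grey), with the median of each row as a black bar and vertical scatter for legibility only. The class II median is -0.30 and the interferon gamma pathway median -0.20. The medians are -0.12 for endosomal proteases and inhibitors, -0.04 for class II transcription and -0.02 for endosomal transport. For the 3 tested inhibitors and further class II genes the median is 0.18.

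The macrophage label was checked against marker genes, since B cells and dendritic cells also carry much class II. All 8 macrophage markers were tested, led by Lyz2, lysozyme, at 12303 and 13148 FPKM, and none passed, beside 2.44% of all tested loci. Their summed level was 15947 FPKM in the MEK1-low group and 16675 FPKM in the MEK1-hi group. The 5 B cell markers summed to 2.25 and 2.12 FPKM, nearly all of it Cd79b (2.25 and 2.09 FPKM), and Cd79a and Pax5 were listed at 0 in both groups. The 8 dendritic cell markers summed to 7.02 and 8.16 FPKM. Of this, the joined row of Clec9a and Clec1b held 3.97 and 4.35 FPKM. Clec10a held 2.27 and 3.33 FPKM (q = 0.921 from the authors' deposited table). Cd209a was listed at 0 in both groups and Flt3 stood at 0.0348 and 0.0339 FPKM. The 5 T cell markers summed to 0.556 and 0.350 FPKM (highest for Trac, 0.210 and 0.124 FPKM) and the 7 fibroblast markers to 5.71 and 4.60 FPKM (highest for Col1a1, 1.60 and 1.59 FPKM). The part of such cells in the class II levels was not tested.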

How the data were processed

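Per the labels' protocols, TRIzol-extracted RNA was sequenced as stranded mRNA libraries with paired reads of 100 bases. The build mm10 and the tools Cuffdiff, Cufflinks, TopHat and FastQC 0.73 stand in the submitters' processing notes, without settings. The authors deposited 1 table with 1 FPKM value per group, a test score, a p-value and a q-value per locus, laid out as by Cuffdiff per the file headers. The column named GFP exo was taken as the MEK1-low group, whose treatment label also says GFP. No test could be fitted without values per sample. Percent differences are MEK1-hi over MEK1-low FPKM, and log2 fold changes use log2(FPKM + 1), which understates low genes. Gene positions are from GENCODE M21 (mm10), counted from 1. Counts and medians were computed with pandas 2.3.3 and tested on simulated data. The class II genes, the lists and the text's gene selection were chosen with earlier results of these data known. Named were all class II genes, the 2 most abundant genes of each pathway list, the 3 most abundant other loci of the region, leading markers and markers at 0. Rfxap, Rfx5, Rfxank, Irf1, Ifngr1, Ifngr2, Socs1, Ctsa, Ctsc, Ctsh, Ctsl, Ctsz, Lgmn, Cstb, Cst7, Tap1, Tap2, Clec10a and Flt3 were named after their values were seen. Some list genes that this rule took are not reported here, though counts, sums and medians include those in the table. Alternatives covered the threshold, pseudocount, minimum level, scaling and joined rows.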

Additional observations from a re-analysis of the deposited data

How the results depend on the processing

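The count of class II genes that passed was 0 in the authors' deposited table, also with q under 0.1, and it was 4 at an unadjusted p under 0.05. Requiring in addition an absolute test statistic of at least 2, or leaving out the joined row of Cd74, can only lower a count. The 0 under those settings was therefore fixed in advance. For the other pathway genes the count was 0, 1 (Irf1) with q under 0.1 and 5 at an unadjusted p under 0.05. The median log2 fold change of the class II genes lay between -0.32 and -0.26 under all 7 alternatives of pseudocount, minimum, scaling and joined rows. The count of lower values stayed at 8 under both scalings, and was 7 of the 9 without Cd74. For single genes, 35 of 40 alternatives moved the log2 fold change by at most 1.5 times. The other 5 were Ciita and H2-DMb2 with a smaller or no pseudocount, and H2-DMa (0.11) with equal FPKM totals. Of the 40, 0 changed the sign, but a pseudocount cannot change a sign. The scalings shifted log2 values by only -0.001 (median set to 0) and 0.044 (equal totals), less than any fold change they opposed. Neither the signs nor the count of lower values could therefore change under these settings.

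The 4 class II genes with an unadjusted p under 0.05 had absolute test statistics of 1.41 to 1.61. Of the 1095 loci with such a p in the authors' deposited table, 62.9% had an absolute statistic under 2. No paired analysis was possible because the table holds 1 value per group, and for the same reason no replicate could be left out in turn. The depth is unknown, so how far it limits Ciita and H2-DMb2, both near 1 FPKM, cannot be given.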
